A study of Mus musculus with 13 samples.

Results

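The lost origins described here were 3711 regions of the mouse genome that had a replication origin peak in every control culture and in no culture treated with PhenDC3. They were chosen by the presence of peaks. The peaks of the 5 lists of SNS-seq, the sequencing of short RNA-primed nascent strands, were joined wherever they overlapped by at least 1 bp, which gave 246934 regions on the nuclear chromosomes. A region was a lost origin with a peak in all 3 Ctrl lists and in neither PhenDC3 list, a pattern held by 1.5% of all merged regions. The loss is therefore the rule itself and not a finding, and it is a loss of called peaks, since the lists hold no read counts.

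All samples came from asynchronous cultures of CGR8, a line of mouse embryonic stem (ES) cells grown with LIF. Ctrl cultures received 0.5% DMSO for 48 h. PhenDC3 cultures received 10 μM of PhenDC3, a bisquinolinium ligand that binds and stabilizes G-quadruplexes (G4), in 0.5% DMSO for the same 48 h. SNS-seq had 3 Ctrl and 2 PhenDC3 replicates with 1 RNase-treated library per condition, against which the peaks were called, and RNA-seq had 3 replicates per condition.

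A replication origin is a site where DNA synthesis starts. In mammals many origins lie close to a G-rich element that can fold into a G4, and many lie at CpG islands and promoters. Origins are licensed when the MCM helicase is loaded in G1, and only part of them fire in a given S phase.

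In the merged set, 35490 regions had a peak in all 3 Ctrl lists. Of these, 63.9% also had a peak in both PhenDC3 lists, 18.2% in that of PhenDC3 replicate 2 alone and 7.47% in that of PhenDC3 replicate 1 alone. The lost origins were the remaining 10.5%. The classes compared with them were the 22677 regions with a peak in all 5 lists, the 9102 regions with a peak in all 3 Ctrl lists and in 1 PhenDC3 list, and the 15034 regions with a peak in exactly 2 Ctrl lists and in no PhenDC3 list.

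The lists themselves differed before any comparison. They held between 79377 (Ctrl replicate 3) and 144103 (PhenDC3 replicate 1) nuclear peaks. Of the regions with a peak of Ctrl replicate 3, 6.54% lay in promoters, against 11.9% and 14.6% for Ctrl replicates 1 and 2 and 6.79% and 6.11% for PhenDC3 replicates 1 and 2. The control list with the fewest promoter peaks thus resembled the PhenDC3 lists in that respect, and the differences in promoter share below are given with and without it. Peak names inside the lists carry an adapter filter tag for replicate 2 of both conditions and for both RNase-treated libraries, and not for the other replicates. The names inside the list of Ctrl replicate 3 also carry the text rep2, so the files do not settle which library that list came from, and it was used as its label gives it.

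Examples show the sequences in question. They are among the strongest that overlap no annotated exon, ranked by the weakest of their 3 control peaks. The first 2 had a predicted G4 within 500 bp of their centre (G4-positive), and the other 3 had none (G4-negative). All sequences are from GRCm38 (mm10), 5′ to 3′.

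For the G4-positive origins the G-rich strand is printed, with the predicted G4 in capitals and 20 bases on each side.
Intergenic origin chr15:36928885-36929329, sequence at chr15:36929266-36929330, minus strand: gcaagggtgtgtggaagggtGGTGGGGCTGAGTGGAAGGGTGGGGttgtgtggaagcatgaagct
Intergenic origin chr11:97439455-97440181, sequence at chr11:97439749-97439827, plus strand: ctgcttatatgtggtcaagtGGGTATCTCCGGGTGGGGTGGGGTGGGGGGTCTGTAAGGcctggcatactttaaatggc

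For the G4-negative origins 121 bases around the summit of Ctrl replicate 1 are printed on the plus strand, with runs of at least 3 G or 3 C in capitals.
Origin in an intron of Btn1a1, chr13:23463373-23463588, sequence at chr13:23463414-23463534: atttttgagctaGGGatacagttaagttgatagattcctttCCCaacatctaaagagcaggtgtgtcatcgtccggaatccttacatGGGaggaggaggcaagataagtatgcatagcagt
Origin in an intron of Klhl26, chr8:70462778-70463042, sequence at chr8:70462904-70463024: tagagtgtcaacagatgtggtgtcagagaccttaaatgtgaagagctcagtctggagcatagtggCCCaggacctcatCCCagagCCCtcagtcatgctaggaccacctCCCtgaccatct
Origin in an intron of Csmd2, chr4:128350512-128351400, sequence at chr4:128350689-128350809: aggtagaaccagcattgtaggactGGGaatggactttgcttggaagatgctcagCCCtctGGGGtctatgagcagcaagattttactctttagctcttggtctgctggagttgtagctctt

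The predicted G4 is 25 bases long in the first sequence and 39 bases long in the second. The G4-negative windows hold 3, 4 and 3 runs of at least 3 G or 3 C. In the chr15 origin the fold enrichment of the peak over the RNase-treated library was 13, 9.40 and 21.4 in Ctrl replicates 1, 2 and 3. In the chr11 origin it was 4.0, 4.38 and 5.76. In the origin in Btn1a1, a milk fat globule protein, it was 9.90, 12.8 and 13.8. The nearest PhenDC3 peak lay 2065 bp, 495 bp and 2781 bp from these origins.

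The 4 lost origins with the highest rank included the chr15 origin printed above. The highest was in an exon of Frat1, a gene for a GSK3-binding protein of the Wnt pathway (chr19:41830534-41831100). Its fold enrichment was 9.27, 8.58 and 7.70 in Ctrl replicates 1, 2 and 3, it had a GC content of 64.8% and no G4, and no PhenDC3 peak lay within 9769 bp. The next lay in an exon of Aplf, a DNA repair factor (chr6:87629289-87629813), with 6.67, 6.10 and 10.2. The fourth lay in Sh2b1, a gene for an adapter of receptor signalling (chr7:126474419-126474845), with 5.76, 5.49 and 5.62. Its centre was 498 bp downstream of the nearest TSS, one of Sh2b1, and within 2 kb upstream of another TSS. The origins in Aplf and Sh2b1 were both G4-positive.

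Most lost origins were of middling strength in the controls. Peaks of each list were ranked by −log10 p and given a percentile within the list. Lost origins had a median percentile of 59.97 in Ctrl replicate 1 (quartiles 35.7 and 79.4), 51.1 in replicate 2 (26.9 and 71.8) and 49.9 in replicate 3 (27.5 and 70.6). Regions with a peak in all 5 lists had medians of 80.1, 71.2 and 74.8, and those with 1 PhenDC3 list 70.8, 63.7 and 66.0. The median fold enrichment of lost origins was 5.75, 5.12 and 5.58 in the 3 lists. Regions with 2 Ctrl lists had median percentiles of 48.3, 44.6 and 38.0 in the lists where they had a peak. The 4 classes stood in the same order in each control list, from all 5 lists down to 1 PhenDC3 list, the lost origins and 2 Ctrl lists.

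The class was not made only of marginal peaks. In 856 lost origins (23.1%) all 3 control peaks lay above the median of their list, against 54.98% of the regions with all 5 lists. In 7 of them all 3 lay in the strongest 10%. At the other end, 132 had a control peak with a −log10 p under 6, where the lowest value of a list was about 5. Since the rule used these lists, strength is given as a description and without a test.

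**Figure D1:**
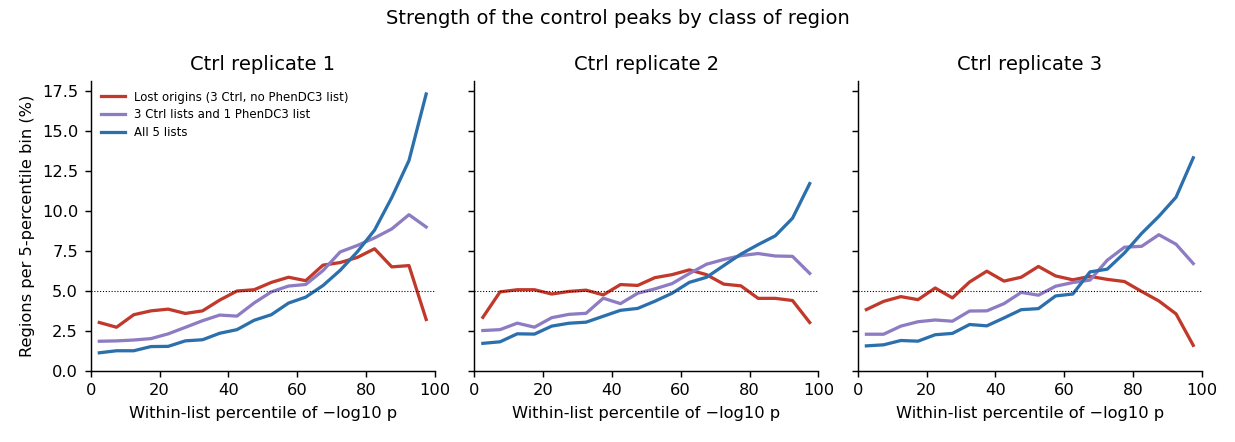
Share of regions (vertical axis, %) in each bin of 5 percentiles of −log10 p (horizontal axis) in the lists of Ctrl replicates 1, 2 and 3, for lost origins, regions with all 3 Ctrl lists and 1 PhenDC3 list, and regions with all 5 lists. The dotted line is the 5% that a class with the strength of the whole list would have. Regions with all 5 lists climb to the strongest bins. Lost origins rise from 2.72% to 7.63% in Ctrl replicate 1, lie nearer the dotted line in replicates 2 and 3, and drop in the last bin.

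The summits of the 3 control peaks spread over a median of 50 bp, and over at most 100 bp in 73.6% of lost origins. For regions with all 5 lists the median was 53 bp and the share 69.1%. The rule asked for overlapping control peaks, so close summits are part of it. Lost origins were narrower, with a median merged width of 338 bp against 487 bp.

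By the rule no PhenDC3 peak overlapped a lost origin, and the distances to PhenDC3 peaks are given without a class to compare. The median distance from a lost origin to the closest peak of either PhenDC3 list was 1597 bp. It was 2597 bp to the list of PhenDC3 replicate 1 and 4120 bp to that of PhenDC3 replicate 2, the shorter list. Of the lost origins, 433 (11.7%) had a PhenDC3 peak within 200 bp, 1517 (40.9%) within 1 kb and 2846 (76.7%) within 7 kb. Just inside the rule stood 32 lost origins with a PhenDC3 peak at most 50 bp away, the nearest at 7 bp. Just outside it stood 10 regions with 1 PhenDC3 list whose PhenDC3 peak overlapped the span of the control peaks by at most 50 bp, the smallest overlap being 12 bp.

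G4 were less frequent at lost origins than at origins that kept their peaks. Of the lost origins, 1959 of 3711 were G4-positive, which is 52.8% (95% Wilson confidence interval 51.2% to 54.4%). This share was 77.3% (76.8% to 77.8%) for regions with all 5 lists and 72.2% (71.2% to 73.1%) for those with 1 PhenDC3 list. It was 41.7% (40.9% to 42.5%) for regions with 2 Ctrl lists and no PhenDC3 list. Lost origins therefore stood between the retained origins and the less reproducible control origins. The latter were uneven, with a G4-positive share of 25.1% where Ctrl replicate 1 was the list lacking, 48.9% for replicate 2 and 45.5% for replicate 3. Over all merged regions the G4-positive share was 61.7%. Among regions with a peak of Ctrl replicates 1, 2 and 3 it was 57.85%, 63.3% and 63.98%. Among those of PhenDC3 replicates 1 and 2 it was 71.7% and 78.6%, so the PhenDC3 lists were richer in G4 as a whole. The part of this list-wide shift in the differences below was not tested.

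The difference was −24.5 percentage points from the regions with all 5 lists (adjusted p = 1.9e-196), −19.4 points from those with 1 PhenDC3 list (adjusted p = 3.0e-95) and 11.1 points from those with 2 Ctrl lists (adjusted p = 2.4e-33, Fisher's exact test, two-sided, Benjamini-Hochberg over 9 comparisons). These tests count regions, not cultures, and all classes come from the same 5 libraries. Measured around the summit of each control list in place of the centre, the share at lost origins was 53%, 53.4% and 52.9% in Ctrl replicates 1, 2 and 3, against 76.4%, 78.1% and 77.0% at regions with all 5 lists, so the difference was there with the summits of each control list.

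The size of the difference depended on the libraries and peaks used, and each such setting redrew the classes. It was −9.09 points from the regions with a peak in every remaining list when PhenDC3 replicate 2 was left out. Then 10193 regions met the rule, since regions whose only PhenDC3 peak was in that list (6451 with all lists) counted as lost. The difference was −8.30 points when only peaks above the median of their list were used, with 3194 regions meeting the rule. That filter also dropped weaker PhenDC3 peaks, so regions that had one could count as lost. Only 856 of the 3711 lost origins had all 3 control peaks above the median. Without Ctrl replicate 1 the class with 1 Ctrl list fewer is that with 1 Ctrl list and no PhenDC3 list. The difference from it was 0.97 points (adjusted p = 0.16, Fisher's exact test as above), and so was not called. From regions with 2 Ctrl lists the difference was 18.9 points without PhenDC3 replicate 2. Without Ctrl replicate 1 the differences from regions with a peak in every remaining list and with 1 PhenDC3 list grew to −38.9 and −29.4 points.

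The definition of a G4 also moved the size. With a G4Hunter threshold of 1.5 the differences from regions with all 5 lists, with 1 PhenDC3 list and with 2 Ctrl lists were −13.2, −11.3 and 6.47 points, and with G4 within 250 bp of the centre they were −11.4, −9.43 and 4.62 points. With equal numbers of peaks per list the first was −15.6 points, and with the stronger peaks the second was −7.74 points. All of these kept the direction and the call.

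Where a G4 was present, it lay mostly upstream. In G4-positive lost origins the strongest G4 was upstream of the centre, read along the G-rich strand, in 1390 of 1959 (70.95%, 68.9% to 72.9%). This share was 88.2% (87.8% to 88.7%) for regions with all 5 lists and 86.1% (85.2% to 86.9%) for those with 1 PhenDC3 list. Averaged over all lost origins, G4 covered 5.98% of positions from 100 to 400 bp upstream and 1.98% of those equally far downstream. The highest coverage, 8.30%, was at −313 bp, against 14.8% at −283 bp for regions with all 5 lists. Regions with 2 Ctrl lists had almost no such asymmetry, with 2.96% upstream and 2.21% downstream. The G4 themselves were alike. The strongest G4 had a median length of 40 bp in lost origins and in regions with all 5 lists, and a median G4Hunter score of 2.19 and 2.18.

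**Figure D2:**
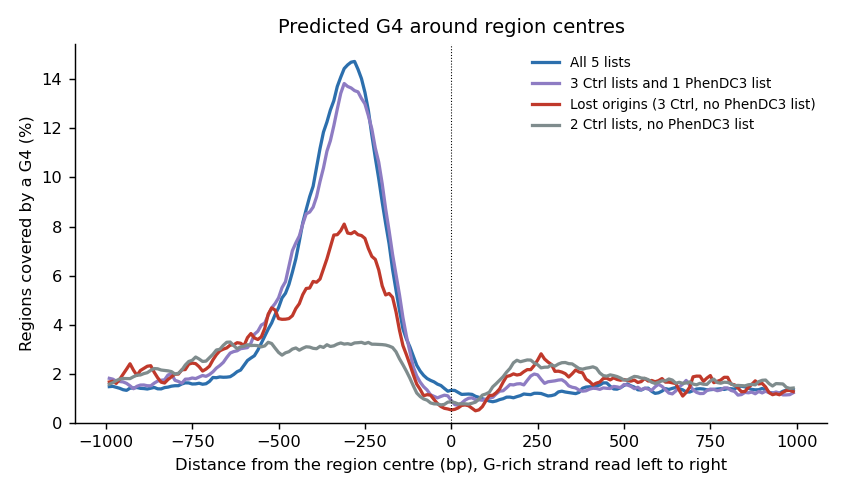
Percentage of regions covered by a predicted G4 (vertical axis) at each distance from the region centre in bp (horizontal axis), with G4 of both strands turned so that the G-rich strand reads left to right, in steps of 10 bp. Lost origins rise to about 8% near −310 bp, regions with all 5 lists and with 1 PhenDC3 list to about 14%, and regions with 2 Ctrl lists lie between 0.73% near the centre and 3.29% upstream.

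The G4-positive share of lost origins was higher where the control peaks were stronger. Among the 1422 lost origins whose weakest control peak was in the lowest 20 percentiles of its list, 49.4% (46.8% to 52.0%) were G4-positive. This became 52.0%, 53.7% and 61.3% in the next 3 bins, and 69.9% (59.3% to 78.7%) among the 83 lost origins in the highest bin. Regions with all 5 lists ran the other way, from 82.8% (81.6% to 83.98%) in the lowest bin to 72.5% (71.3% to 73.8%) in the highest. Regions with 1 PhenDC3 list also climbed, from 69.8% (67.8% to 71.7%) to 81.4% (78.6% to 83.8%), so a rise with strength was not particular to lost origins. In the highest bin the intervals of lost origins and regions with all 5 lists overlapped, and in the other 4 bins they did not. Compared within these bins and weighted by lost origins, the difference from regions with all 5 lists was −27.4 points, a comparison added after the data were seen.

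**Figure D3:**
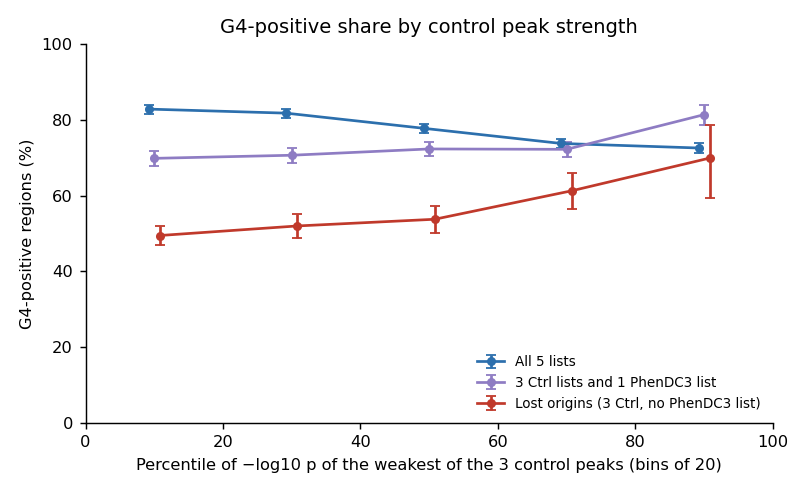
Percentage of G4-positive regions (vertical axis) by the percentile of −log10 p of the weakest of the 3 control peaks, in bins of 20 percentiles (horizontal axis), with 95% Wilson intervals. Lost origins climb from 49.4% to 69.9% and regions with 1 PhenDC3 list from 69.8% to 81.4%, while regions with all 5 lists descend from 82.8% to 72.5%.

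By position, 38.4% of lost origins were intergenic, 40.2% lay in introns, 13.6% in promoters (the 2 kb upstream of a curated RefSeq TSS) and 7.79% in exons. The G4-positive share was 53.6%, 52.6%, 55.6% (51.3% to 59.9%) and 45.0% (39.4% to 50.8%) in these places. It was highest in promoters and lowest in exons, with intervals that did not overlap. Regions with all 5 lists in promoters were G4-positive in 82.1% (80.4% to 83.8%). The lower G4 share was thus found in promoters and elsewhere, with differences of −26.5 and −24.5 points. The median distance of a lost origin to a TSS was 13107 bp, against 20810 bp for regions with all 5 lists and 7794 bp for those with 2 Ctrl lists.

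The promoter share of lost origins, 13.6% (12.5% to 14.8%), exceeded that of regions with all 5 lists, 8.61%, by 5.00 points (adjusted p = 5.2e-20) and that of regions with 1 PhenDC3 list, 10.3%, by 3.31 points (adjusted p = 1.5e-07). It was 6.17 points below that of regions with 2 Ctrl lists, 19.8% (adjusted p = 1.1e-18, Fisher's exact test as above). The last direction rested on Ctrl replicate 3. Of the regions with 2 Ctrl lists, 7840 lacked that list, and 33.2% of these lay in promoters, against 5.35% and 4.93% of those lacking Ctrl replicate 1 or 2. Without Ctrl replicate 3 the lost origins numbered 11606 and exceeded the regions with 1 Ctrl list by 14.9 points. The differences from regions with a peak in every remaining list and with 1 PhenDC3 list were then 16.6 and 11.3 points. The first of these was 1.70 points without Ctrl replicate 1, 1.53 without Ctrl replicate 2 and 1.8 without PhenDC3 replicate 2. With only the stronger peaks, the differences from regions with all 5 lists and with 1 PhenDC3 list were −0.62 and −0.55 points (adjusted p = 0.47 and 0.48). Regions with a weaker PhenDC3 peak could again count as lost there. The difference from regions with 1 PhenDC3 list was 0.59 points without Ctrl replicate 1 (adjusted p = 0.20) and 0.74 points without Ctrl replicate 2 (adjusted p = 0.084).

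CpG-rich sequence, with a GC content of at least 55% and a CpG ratio of at least 0.65 over 500 bp, was found at 303 lost origins, or 8.17% (7.33% to 9.09%). The difference was 2.41 points from regions with all 5 lists (adjusted p = 6.3e-08), −4.73 points from regions with 2 Ctrl lists (adjusted p = 2.5e-16) and 0.88 points from those with 1 PhenDC3 list (95% interval −0.15 to 1.91, adjusted p = 0.090, not called). CpG-rich lost origins were G4-positive in 53.1% and the others in 52.8%. None of the CpG differences kept its call or direction under every setting. The difference from regions with a peak in every remaining list was −0.28 points without Ctrl replicate 1 and −1.11 points without PhenDC3 replicate 2. Without Ctrl replicate 3 the difference from regions with 1 Ctrl list was 12.3 points.

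**Figure D4:**
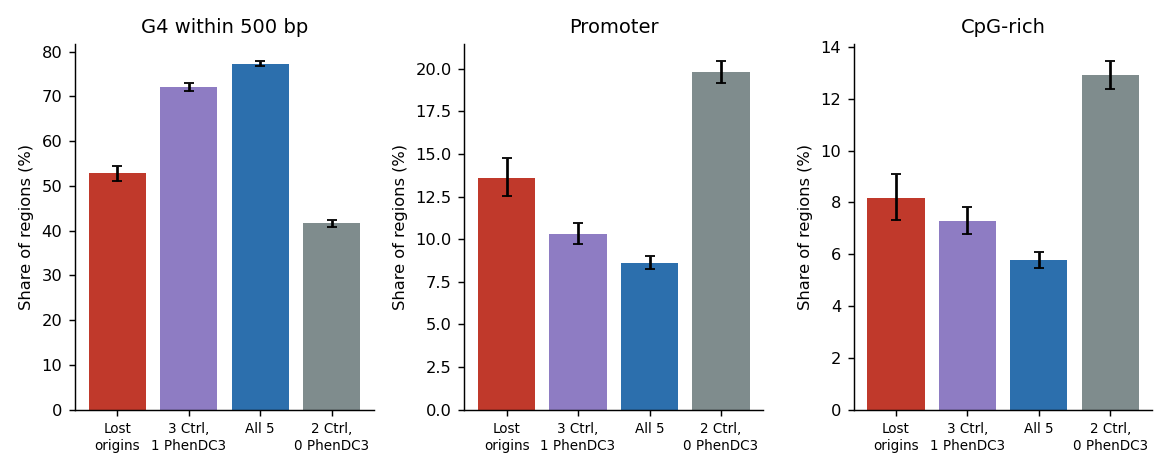
Percentage of regions (vertical axes, each from 0) that were G4-positive, in promoters or CpG-rich, for lost origins and the 3 classes compared with them, with 95% Wilson intervals as error bars. Lost origins lie between regions with all 5 lists and regions with 2 Ctrl lists in each of the 3 panels.

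The base composition of lost origins was ordinary, with a median GC content of 49.0% within 500 bp of the centre against 50.6% for regions with all 5 lists. Soft-masked repeats made up more than 50% of the 500 bp window around the centre in 14.1% of lost origins and in 18.4% of regions with all 5 lists. Of known promoter motifs, searched in the 1000 bp around the centre on both strands, the E-box CACGTG was present in 16.4% of lost origins, 14.8% of regions with all 5 lists and 13.6% of all merged regions. The GC box GGGCGG was present in 32.9%, 33.7% and 28.5%. The ETS motif CCGGAAG was present in 7.25%, 6.30% and 6.29%, and the CCAAT box in 72.4%, 76.2% and 75.4%. The octamer ATGCAAAT of the Oct4 family was present in 3.72%, 4.51% and 4.84%, and the AP-1 motif TGACTCA in 13.1%, 13.6% and 14.7%. A match is only the presence of these letters, and none of these shares was tested.

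Lost origins lay among other origins. Counting as origins the 101678 merged regions with a peak in at least 2 Ctrl lists or in both PhenDC3 lists, a lost origin had 1.66 ± 1.72 (mean ± SD over 3711) other origins within 7 kb. Regions with all 5 lists had 1.42 ± 1.72, those with 1 PhenDC3 list 1.33 ± 1.62 and those with 2 Ctrl lists 1.74 ± 1.71. No other origin was within 7 kb of 28.5% of lost origins, against 37.7%, 38.9% and 25.7% of these classes, so lost origins stood nearest to the regions with 2 Ctrl lists. Another lost origin lay within this distance of 10.4% of lost origins, and a region with all 5 lists of 28.7%.

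The RNA-seq libraries, which played no part in the rule, held between 22232014 and 29486502 counts. Markers of ES cells (Pou5f1, Nanog, Esrrb and 5 others) summed to between 7134 and 8090 CPM (counts scaled to library size) in Ctrl and between 8207 and 9600 in PhenDC3. Primitive endoderm markers (Gata4, Gata6, Sox17) summed to 14.5 to 26.4 and to 36.3 to 48.8 CPM, fibroblast markers to 5.71 to 6.80 and to 3.18 to 5.66, neural markers to 7.13 to 11.9 and to 4.89 to 6.35, trophoblast markers to 5.01 to 6.33 and to 3.74 to 5.23, and mesoderm markers stayed under 1 CPM. No marker was at 0 in every library. Their part in the results below was not tested. In such bulk libraries fewer cells of a type and less RNA per cell cannot be told apart.

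Genes near lost origins were called in shares close to those of all genes. A lost origin overlapped the 2 kb on either side of a TSS of 1021 genes, and 792 of them were tested. With PhenDC3, 153 (19.3%) were higher and 160 (20.2%) lower at an adjusted p of at most 0.05 in edgeR's quasi-likelihood test, beside 18% higher and 18.7% lower of all 13972 genes tested. The median log2 fold change was 0.03, against 0.01 over all genes. Genes near regions with all 5 lists were higher in 19.8% and lower in 19.4%, and those near regions with 1 PhenDC3 list in 19.6% and 19.5%. These shares all lie near those of all genes. With the mean level at 1 CPM or more and no overlap of the 3 Ctrl and 3 PhenDC3 values asked for as well, 140 genes were higher and 149 lower. Over all genes tested these criteria took in 16% and 17.3%.

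The 8 largest rises and the 8 largest falls of that kind are described by gene. Groups without overlap and a passed test are how these genes were picked, and not results about them. Gnal encodes a G protein subunit that stimulates adenylyl cyclase. Its level was 2.03, 3.05 and 2.90 CPM in Ctrl replicates 1, 2 and 3 and 18.5, 21.2 and 17.6 CPM in the PhenDC3 replicates (log2 fold change 2.85 ± 0.19 SE, adjusted p = 5.3e-05). Adcy2, an adenylyl cyclase, was at 0.51, 0.32 and 0.17 CPM in Ctrl and at 2.25, 2.34 and 1.92 CPM in PhenDC3, a rise of 2.66 ± 0.37 on the log2 scale. Both genes were low in every Ctrl library.

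Kcnk2 encodes a background potassium channel and had 2 lost origins, centred 234 bp upstream and 647 bp downstream of the nearest TSS. Its level was 1.63, 0.91 and 1.21 CPM in Ctrl and 7.22, 6.27 and 6.83 CPM in PhenDC3. Zbtb10, a zinc finger transcription repressor, was at 14.4, 14.1 and 9.56 CPM in Ctrl and at 65.5, 71.5 and 56.8 CPM in PhenDC3, with a G4-positive and CpG-rich lost origin 80 bp downstream of its TSS (chr3:9250487-9250806). The groups were far apart for both genes. The log2 fold changes were 2.42 ± 0.24 and 2.34 ± 0.18 SE. The remaining rises were Ebf4, a transcription factor (0.09 to 0.37 CPM in Ctrl and 1.45 to 3.39 in PhenDC3), Spats2l (0.98 to 1.00 and 5.77 to 9.45), Dusp8, a phosphatase of MAP kinases (0.27 to 0.91 and 2.58 to 2.81), and She, an SH2 adapter protein (1.9 to 4.2 and 13.2 to 17.1). All passed the test, as the criteria asked. The Ctrl mean of 4 of the 8 (Ebf4, Spats2l, Adcy2 and Dusp8) was under 1 CPM, so these met the minimum level only through PhenDC3, and their presence among the rises is in part set by it.

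Of the 8 largest falls, Sox11, a transcription factor of neural progenitors, was at 30.3, 36.8 and 28.5 CPM in Ctrl and at 2.67, 1.84 and 5.85 CPM in PhenDC3 (log2 fold change −3.20 ± 0.35 SE, adjusted p = 2.8e-04). Its lost origin was G4-positive and lay 1495 bp downstream of the TSS (chr12:27341087-27341358), with a fold enrichment of 4.35, 3.34 and 3.64 in the 3 Ctrl lists. The lowest Ctrl level of Sox11 was well above the highest PhenDC3 level.

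Vrtn, which affects the number of vertebrae, had 2 G4-positive lost origins centred 1283 and 973 bp upstream of its TSS (chr12:84639623-84639849 and chr12:84639934-84640158). Its level was 2.75, 3.37 and 8.52 CPM in Ctrl and 0.42, 0.04 and 0.11 CPM in PhenDC3, so that the PhenDC3 libraries held few reads and the gene met the minimum level only through Ctrl. Its log2 fold change was −4.59 ± 0.67 SE (adjusted p = 1.1e-03). Ccdc3, a secreted protein, fell from 13.9, 12.9 and 10.9 CPM to 1.63, 1.05 and 1.27 CPM, with a CpG-rich, G4-negative lost origin 425 bp downstream of its TSS.

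Doc2a, a synaptic calcium sensor (3.98 to 5.24 CPM in Ctrl and 1.23 to 1.46 in PhenDC3), Fjx1, a Golgi kinase of planar polarity (3.8 to 5.2 and 1.02 to 1.46), and Sned1, a matrix protein (3.92 to 4.84 and 1.01 to 1.71), also fell. The other 2 were short non-coding RNAs. Mir6236 was at 703, 1012 and 907 CPM in Ctrl and at 109, 157 and 333 CPM in PhenDC3. Rmrp, the RNA of RNase MRP, was at 33.1, 34.6 and 10.8 CPM in Ctrl and at 3.12, 0.88 and 9.29 CPM in PhenDC3, and Ctrl replicate 3 stood apart from the other controls. Its adjusted p was 0.023, and its call was lost without Ctrl replicate 1 or 2, without PhenDC3 replicate 1 or 2, without the filter on low counts, and with the replicate number as a block, with adjusted p between 0.051 and 0.25. Short RNAs are poorly recovered in mRNA libraries, and such counts are uncertain.

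**Figure D5:**
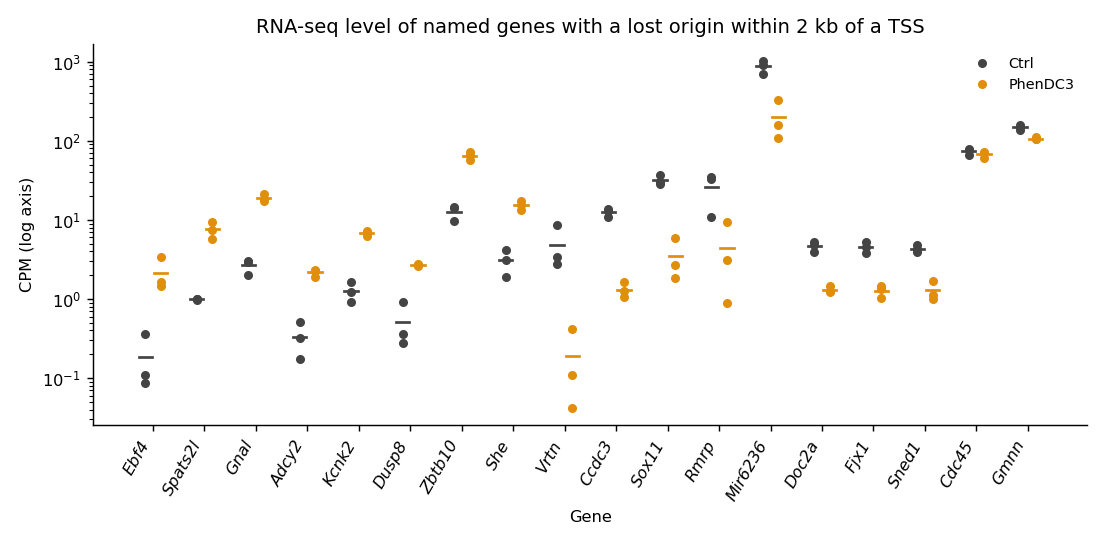
Level of the 18 named genes in CPM (vertical axis, logarithmic) in the 3 Ctrl and 3 PhenDC3 RNA-seq libraries (points) with the mean of each group (bars). The first 8 genes rose, the next 8 fell, and the last 2, Cdc45 and Gmnn, are the replication genes with a lost origin near a TSS.

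A lost origin lay within 2 kb of a TSS of 5.67% of all genes tested. Of 29 genes of origin licensing and firing, 2 (6.9%) had one, a share near that of all genes. Gmnn encodes geminin, the inhibitor of the licensing factor Cdt1, and had a CpG-rich, G4-negative lost origin 580 bp downstream of a TSS (chr13:24761204-24761510), with a fold enrichment of 5.42, 4.65 and 4.25 in the Ctrl lists. Its level was 151, 159 and 136 CPM in Ctrl and 104, 111 and 104 CPM in PhenDC3, lower in each PhenDC3 library (log2 fold change −0.48 ± 0.11 SE, adjusted p = 8.1e-03). Cdc45 encodes a subunit of the replicative helicase and had a G4-positive lost origin 1606 bp downstream of a TSS. Its level was 75.9, 66.5 and 78.3 CPM in Ctrl and 71.8, 60.8 and 69.8 CPM in PhenDC3, and these overlapped (−0.13 ± 0.12 SE, adjusted p = 0.43).

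Over the whole list of 29 licensing and firing genes, 1 was higher, 8 were lower and 20 passed in neither direction, with a median log2 fold change of −0.17. That is 3.45% higher and 27.6% lower, beside 18% and 18.7% of all genes tested. None of the 21 pluripotency genes had a lost origin at a TSS, and 8 of them were higher (38.1%) and 6 lower (28.6%). None of the 9 G4 helicase genes had one, and none of these passed the test in either direction. None of the 14 p53 targets had one, and of the 13 tested 8 were higher (61.5%) and 1 lower (7.69%). With 5.67% of all genes tested having a lost origin there, lists this short could hold none, so the absence is not a result about them. Any link between lost origins and the 23 called changes in these 3 lists was not tested.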

How the data were processed

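SNS-seq and RNA-seq of CGR8 cells were used. For SNS-seq the authors trimmed reads (cutadapt 1.9.1), mapped them to mm10 (Bowtie2 2.2.5), called peaks per replicate with MACS2 2.1.0 against the RNase-treated library of the condition and intersected them with SICER. The deposited lists give a ratio (fold enrichment) and −log10 p per peak, so depth is unknown, and an interval covers counting error alone. RNA-seq raw counts were deposited by the authors (TopHat2, HTSeq), with no strand setting given in the sources used here. Deposited pseudo-counts and the authors' DESeq2 table (fold changes, p-values) were not used.

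Regions were merged over replicates as stated. G4 came from G4Hunter (window 25, threshold 2; alternatives 1.5 and Quadparser), and promoters from 45756 curated RefSeq transcripts. Shares were compared with two-sided Fisher's exact tests across regions (scipy 1.17.1). RNA was tested with edgeR 4.0.16 (RLE, filterByExpr, no replicate block). DESeq2 1.42.0 was an alternative. CPM are RLE-scaled. Merging, G4 search and the edgeR fit were tested on simulated data. Genes were named where they ranked among the 8 strongest rises or 8 strongest falls under the criteria stated, or belonged to 1 of 4 gene lists. An example region is not reported here. Members, lists and tests were chosen with earlier results of these data known. The labels do not say that RNA-seq replicates were separate cultures, so p-values measure the spread between these samples, which may be technical.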

Additional observations from a re-analysis of the deposited data

How the results depend on the processing

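The number of lost origins lay between 6380 and 11606 when 1 SNS-seq list was left out. The 11606 were without Ctrl replicate 3, which leaves replicate numbers 1 and 2 of both conditions, and no pairing entered a test. With a list left out, all 5 lists stands below for every remaining list. With a Ctrl list left out, 2 Ctrl lists stands for 1 Ctrl list. Without single lists the G4 differences ranged from −38.9 to −9.09 points (all 5 lists), −29.4 to −20.4 (1 PhenDC3 list) and 0.97 to 18.9 (2 Ctrl lists), those in promoters from 1.53 to 16.6, 0.59 to 11.3 and −6.23 to 14.9, and those in CpG-rich sequence from −1.11 to 11.5, −0.91 to 3.64 and −4.64 to 12.3. Of these, the values without Ctrl replicate 3 against 1 Ctrl list were 14.9 points for promoters and 12.3 for CpG-rich sequence, both reversed. CpG-rich sequence against 1 PhenDC3 list gave 3.64 there. With stronger peaks only, promoters gave −0.62 and −0.55 points and CpG-rich sequence −0.34 against all 5 lists. CpG-rich sequence against 1 PhenDC3 list passed the test with equal numbers of peaks (1.61 points), the looser CpG definition (1.55) and within bins of control strength (1.57, added after the data were seen). Promoters against all 5 lists gave 3.03 points with equal numbers of peaks. Against 2 Ctrl lists they gave −10.2 with stronger peaks and −11.2 with 2 kb on either side of the TSS. Against 1 Ctrl list they gave −3.19 without Ctrl replicate 2. The G4 differences kept direction and call with every G4 definition, though not their size, as given above, and within bins of GC content and width. Leaving out a PhenDC3 list, or dropping weaker peaks, counts regions with such a PhenDC3 peak as lost. Any further cause of these changes was not tested.

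Near lost origins, between 107 and 790 genes were higher and between 93 and 694 lower when 1 library was left out. The largest counts were without the SNS-seq list of Ctrl replicate 3, and the smallest without PhenDC3 replicate 1 of RNA-seq. The largest were of 3905 genes tested, or 20.2% and 17.8%, and the smallest of 797, or 13.4% and 11.7%, beside 12.0% and 11.4% of all genes in that fit. DESeq2 gave 156 and 171. The upstream 2 kb alone gave 88 and 84, and stronger peaks 102 lower. Same-numbered RNA-seq libraries correlated with 0.09, 0.54 and 0.41 in their deviations. Each correlated best with its own number, a hint of pairing, but 1 pair did not exceed 0.1 and the labels name no shared source, so the numbers were not taken as pairs. With the replicate number as a block 235 genes were higher and 221 lower, or 29.7% and 27.9%, beside 27.2% and 26.4% of all genes. Of the 18 named genes, 17 kept their side of the threshold and direction under 10 RNA-seq settings, and Rmrp did not. The 2 PhenDC3 lists and the unknown depth limit what a missing peak can show.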

Other observations

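A few lost origins came in runs. Joined over at most 7 kb between centres, the 3711 lost origins formed 3327 single sites, 169 pairs, 12 runs of 3, 1 run of 4 and 1 run of 6. The run of 6 lay within Ppm1h, a gene for a protein phosphatase, on chromosome 10 (GRCm38, 122669293 to 122681686), and 4 of its origins were G4-positive. The run of 4 covered 13832 bp on chromosome 5 at Chpf2, Mir671 and Smarcd3, a subunit of the BAF chromatin remodelling complex, and 1 of its origins was G4-positive. These runs were named after their values were seen.

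By chromosome, the share of regions with a peak in all 3 Ctrl lists that were lost ranged on the autosomes from 8.97% (95% Wilson confidence interval 7.40% to 10.8%) on chromosome 18 to 11.7% (10.3% to 13.2%) on chromosome 10. On chromosome X, 86 of 626 were lost (13.7%, 11.3% to 16.7%), and on chromosome Y 10 of 162 (6.17%, 3.39% to 11.0%). Of the 1694 hexamers present in at least 5% of the 300 bp windows around lost origins or around regions with all 5 lists, both strands counted together, AAATTA had the highest ratio of lost origins to regions with all 5 lists (12.0% against 8.10%) and AGTCGA the lowest (5.63% against 7.93%). Regions with 1 PhenDC3 list held them in 12.5% and 6.46%. These values were not tested.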
